A study of Homo sapiens with 9 samples.

Results

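The response shared by both forms of GRP78 was taken from all 9 RNA-Seq libraries of the series. H1975 is an established human lung adenocarcinoma line of epithelial type. Every library came from cells given si78, an siRNA against the endogenous GRP78 transcript, for 24 h and then a plasmid for 48 h, so depletion of endogenous GRP78 is common to all 3 groups and cells with GRP78 left intact are not analysed here. The control group of 3 libraries received the empty plasmid pcDNA3 (vector). A further 3 libraries received FLAG-tagged wild-type GRP78, F-78(WT), and the last 3 received F-78(NLS Mut), in which lysines of the nuclear localization signal are replaced by alanine. The comparison set the 6 F-78 libraries, each form with equal weight, against the 3 vector libraries, and it asks what follows from putting GRP78 back whether or not the protein can be imported into the nucleus. A gene was counted as shared when this contrast passed the test and its fold change had the same sign with each form. Of 18653 genes tested, 105 were shared. The model has limits: all libraries come from 1 cell line, both forms are expressed from a plasmid far above the level in the vector cells, and no source used here says that the 3 replicates of a group are separate cultures, so the p-values measure only the spread between these libraries.

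GRP78, also called BiP, is the HSP70-family chaperone of the endoplasmic reticulum (ER) lumen. It binds unfolded proteins and keeps the stress sensors IRE1, PERK and ATF6 inactive. When the sensors are released, the unfolded protein response (UPR) begins: cleaved ATF6 and spliced XBP1 raise ER chaperones and degradation factors, and PERK slows translation while favouring ATF4, which raises DDIT3 (CHOP), ATF3 and PPP1R15A. Tumour cells often carry a raised load of ER stress, and GRP78 is abundant in them.

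The libraries held 17671055 to 27476298 reads counted on genes. Levels are given as CPM, the counts scaled to a common library size after TMM, and the median biological coefficient of variation was 11.2%. All 10 epithelial markers examined reached a mean of 1 CPM, NAPSA only between 1.06 and 3.28 CPM, and their summed level was 4915 to 5545 CPM with vector and 4818 to 5309 CPM with F-78. CD3E, LYZ and DCN had no read, PTPRC stayed at or under 0.274 CPM, and summed leukocyte markers were at 9.79 to 11.5 CPM with vector and 7.28 to 11.1 CPM with F-78. Summed fibroblast markers, nearly all COL1A1, were at 200.2 to 221 CPM with vector and 181 to 241 CPM with F-78, summed endothelial markers at 5.86 to 7.32 and 5.99 to 8.81 CPM, and summed erythroid markers at or under 0.423 CPM. In such bulk RNA, fewer cells of a kind and less RNA per cell cannot be told apart. The vector libraries were not alike. Per 10 percentage points of GC content of the transcripts, the slope of the log2 level, relative to the average of all libraries, was -0.05 in vector replicate 1 but 0.11 and 0.12 in vector replicates 2 and 3, against -0.09, 0.03 and -0.04 in the F-78(WT) libraries and -0.02, -0.05 and -0.03 in the F-78(NLS Mut) libraries. The mean slope was -0.03 in the 6 F-78 libraries and 0.06 in the 3 vector libraries, a difference that did not pass an exact permutation test (two-sided p = 0.060, where the smallest p that 6 against 3 allows is 0.012). The effect of a correction for GC content, and of leaving out a vector library, is therefore given beside each gene list with a call.

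**Figure D1:**
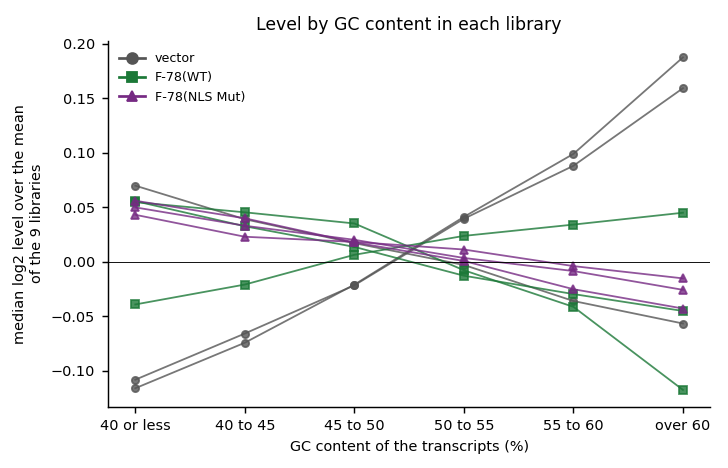
Median log2 level of the tested genes over the mean of the 9 libraries (vertical axis) in 6 classes of transcript GC content (horizontal axis, %), with 1 line per library. Vector replicates 2 and 3 climb to 0.16 and 0.19 in genes over 60% GC, while vector replicate 1 falls to -0.06 and lies among the F-78 libraries.

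HSPA5, the gene of GRP78 on the minus strand of chromosome 9 (125234853 to 125241330, GRCh38), was at 358, 383 and 391 CPM with vector, 5024, 5806 and 6137 CPM with F-78(WT) and 4955, 5148 and 4758 CPM with F-78(NLS Mut). The 6 F-78 libraries lay far above the 3 vector libraries, as the labels require. The log2 fold change was 3.81 (SE 0.05, adjusted p = 1.1e-28) by edgeR's quasi-likelihood test with Benjamini-Hochberg adjustment, which gave every adjusted p below unless another tool is named. It was 3.91 with F-78(WT) and 3.71 with F-78(NLS Mut). Plasmid and endogenous transcripts cannot be told apart in these counts. Its processed pseudogenes moved with it. HSPA5P1 was at 0.231, 0.0361 and 0.0739 CPM with vector, 3.25, 3.92 and 3.61 CPM with F-78(WT) and 2.72, 2.04 and 2.49 CPM with F-78(NLS Mut). The pseudogene ENSG00000250746 was at 0, 0.0361 and 0.0370 CPM with vector, 1.58, 1.81 and 3.27 CPM with F-78(WT) and 1.62, 1.49 and 1.47 CPM with F-78(NLS Mut). Both pseudogenes are counted among the 105 shared genes, and both are uncertain, since reads of HSPA5 can be counted on them.

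Apart from HSPA5 the shared response was small in size. At an adjusted p under 0.05, 34 genes were higher (0.182% of the genes tested) and 71 were lower (0.381%) with F-78 than with vector, and every gene that the contrast called had the same sign with both forms. An unadjusted p under 0.05 in this contrast was met by 1086 higher and 1233 lower genes of the 18653 tested. This is the background for the unadjusted counts given beside each gene list below. The median absolute log2 fold change of the 105 genes was 0.33. Only HSPA5 and its 2 pseudogenes reached 1, and without them the largest absolute value was 0.94. Protein-coding genes made up 100 of the 105. Taken on its own against vector, F-78(WT) gave 40 higher (0.214%) and 64 lower genes (0.343%), and F-78(NLS Mut) gave 55 higher (0.295%) and 93 lower genes (0.499%). These comparisons share the vector libraries. Genes called with each form separately and in the same direction numbered 4 higher (0.0214%) and 7 lower (0.0375%). Of the 105 shared genes, 44 passed with F-78(WT) alone, 39 with F-78(NLS Mut) alone, 11 with both and 11 with neither. An unadjusted p under 0.05 with each form was met by 93 of the 105. The fold change was larger with F-78(WT) for 57 genes and with F-78(NLS Mut) for 48. A test between the forms, which did not choose the genes, called 10 of the 105, against 94 of all genes tested (0.504%). All 6 F-78 libraries lay above all 3 vector libraries for 29 of the 34 higher genes and below them for 45 of the 71 lower genes, and this was so for 2.25% and 2.11% of all genes tested. The counts changed with a correction for base composition and with the vector libraries used. With a per-library GC correction, 158 genes were higher and 38 lower, so the share of lower genes moved from 67.6% to 19.4%, and 33 of the 34 higher and 31 of the 71 lower genes kept their call. Without vector replicate 1 there were 598 higher and 764 lower genes, without vector replicate 2 there were 9 and 14, and without vector replicate 3 there were 7 and 9. The shared lower genes had a median GC content of 60.2% and the shared higher genes 45.4%, against 49.3% over all genes tested.

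**Figure D2:**
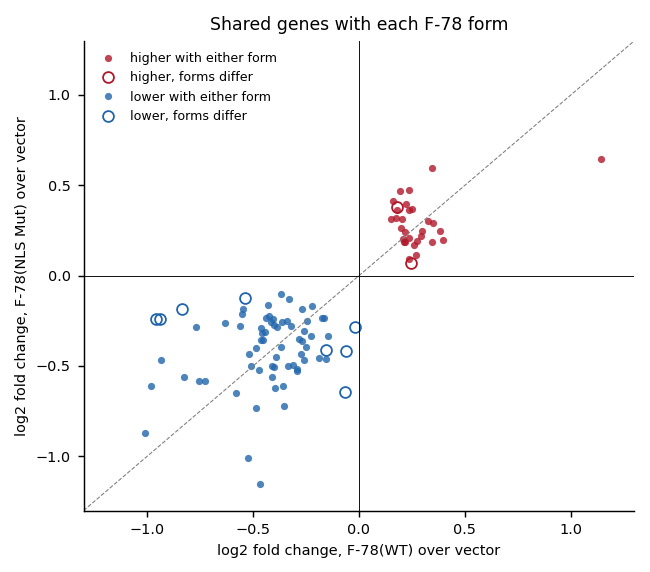
Log2 fold change over vector with F-78(WT) (horizontal axis) and with F-78(NLS Mut) (vertical axis) for 102 shared genes, with HSPA5 and its 2 pseudogenes left out because they lie off the scale. Every point lies where both changes are positive or both are negative, the dashed line marks equal change, and open circles mark the 10 genes that differ between the forms.

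Part of the chaperones and folding enzymes of the ER fell in the contrast of both forms. Of 45 listed genes tested other than HSPA5, 7 fell and 0 rose (unadjusted p under 0.05 in 2 higher and 19 lower members, and 0 higher and 6 lower with DESeq2), and the median log2 fold change of the 45 was -0.10, against -0.005 over all genes tested. The list's median was -0.03 with F-78(WT) and -0.09 with F-78(NLS Mut). The promoters of these genes are shown because most of them hold, near the start, the letters through which ATF6 and XBP1 are known to act. ERSE, the ER stress response element, is CCAAT and CCACG held 9 bases apart, and ERSE-II is ATTGG and CCACG held 1 base apart. On either strand, in the 300 bases from 250 before to 50 after the start (RefSeq, GRCh38.p14), ERSE was found for 25 of 27305 genes (0.0916%) and ERSE-II for 19 (0.0696%). Among the 7 genes that fell, ERSE was found in CALR, CRELD2, ERO1B and HSP90B1, and ERSE-II in HYOU1 and SDF2L1. Neither was found in PDIA4. Of the 41 members of the whole list with a promoter, 6 held ERSE and 2 held ERSE-II, so CANX and PDIA6, named here for that match, held ERSE without passing the test. Other motifs searched in the same way were the UPR element UPRE (TGACGTGG), the amino acid response element CARE (TGATGNAAN) and the E-box (CACGTG). UPRE was found in 2 of the 52 shared lower genes with a promoter (3.85%), against 1.20% of the 12151 tested genes with one and 0.927% of all. CARE was found in 4 of the 52 (7.69%), against 2.82% of the tested genes and 4.45% of all. The E-box was found in 8 of the 52 (15.4%) and in 2 of the 18 shared higher genes with a promoter (11.1%), against 12.01% of the tested genes and 8.78% of all, so its share was near that of the tested genes. Over the tested genes ERSE was found in 0.132% and ERSE-II in 0.123%. A match says only that these letters are present.

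The sequences below run 5′ to 3′ on the strand of the gene and end at the base before its start, with the matched span in capitals. HSPA5 is shown first as the best-known gene with the element. The stretch of HSPA5 lies at chr9:125241344-125241433 on the minus strand, HSP90B1 at chr12:103930210-103930409 on the plus strand, CALR at chr19:12938379-12938608 on the plus strand, CRELD2 at chr22:49918544-49918633 on the plus strand and ERO1B at chr1:236281959-236282208 on the minus strand. HYOU1 lies at chr11:119057206-119057405 on the minus strand and SDF2L1 at chr22:21642102-21642301 on the plus strand.
HSPA5: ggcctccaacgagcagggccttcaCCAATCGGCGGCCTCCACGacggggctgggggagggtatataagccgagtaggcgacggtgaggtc
HSP90B1: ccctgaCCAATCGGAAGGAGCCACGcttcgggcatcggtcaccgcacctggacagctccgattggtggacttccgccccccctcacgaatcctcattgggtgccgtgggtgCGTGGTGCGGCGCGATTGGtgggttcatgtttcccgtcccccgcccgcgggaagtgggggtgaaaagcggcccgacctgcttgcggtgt
CALR: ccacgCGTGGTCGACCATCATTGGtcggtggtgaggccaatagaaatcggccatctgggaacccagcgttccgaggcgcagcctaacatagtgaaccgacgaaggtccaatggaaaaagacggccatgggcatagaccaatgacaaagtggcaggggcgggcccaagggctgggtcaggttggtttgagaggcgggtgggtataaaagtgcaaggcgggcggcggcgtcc
CRELD2: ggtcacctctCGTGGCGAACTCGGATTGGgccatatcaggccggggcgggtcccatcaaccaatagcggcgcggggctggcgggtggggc
ERO1B: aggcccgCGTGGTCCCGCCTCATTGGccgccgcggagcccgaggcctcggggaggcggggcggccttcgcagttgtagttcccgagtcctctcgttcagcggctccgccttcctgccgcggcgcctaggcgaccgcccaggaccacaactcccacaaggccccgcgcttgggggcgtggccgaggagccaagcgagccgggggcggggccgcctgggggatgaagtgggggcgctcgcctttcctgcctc
HYOU1: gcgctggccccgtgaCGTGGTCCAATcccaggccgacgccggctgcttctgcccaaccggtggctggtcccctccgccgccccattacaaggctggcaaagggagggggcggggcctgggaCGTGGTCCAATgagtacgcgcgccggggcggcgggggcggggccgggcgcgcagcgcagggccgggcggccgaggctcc
SDF2L1: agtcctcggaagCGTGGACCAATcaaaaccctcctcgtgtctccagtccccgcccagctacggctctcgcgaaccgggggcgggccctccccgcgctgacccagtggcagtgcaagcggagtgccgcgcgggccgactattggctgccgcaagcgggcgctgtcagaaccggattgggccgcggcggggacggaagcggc

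HYOU1, an ER relative of HSP110 that exchanges the nucleotide of GRP78, was at 816, 974 and 959 CPM with vector, 790.2, 788 and 769.8 CPM with F-78(WT) and 747, 731 and 706 CPM with F-78(NLS Mut). No F-78 library reached a vector library. The log2 fold change was -0.28 (SE 0.05, adjusted p = 0.0022), and -0.23 with F-78(WT) and -0.33 with F-78(NLS Mut). HYOU1, whose promoter carries ERSE-II at 2 places, kept its call in all 11 other fits to the 9 libraries and in 8 of 9 fits that left a library out. PDIA4, a disulfide isomerase that works with GRP78, was at 2446, 2806 and 2834 CPM with vector, 2320.2, 2457 and 2485 CPM with F-78(WT) and 1989, 2064 and 2030.3 CPM with F-78(NLS Mut). F-78(NLS Mut) was lowest throughout, and the F-78(WT) libraries overlapped vector replicate 1. The log2 fold change was -0.28 (SE 0.04, adjusted p = 0.00033). CRELD2, a secreted ER stress protein with disulfide isomerase activity, was at 114, 137 and 145 CPM with vector, 101, 114 and 110.1 CPM with F-78(WT) and 104, 106 and 101 CPM with F-78(NLS Mut). All 6 F-78 libraries were below vector, F-78(WT) replicate 2 by very little. Its log2 fold change was -0.32 (SE 0.06, adjusted p = 0.015). Calreticulin (CALR), the lectin chaperone that retains immature glycoproteins, was at 1858, 2179.5 and 2171 CPM with vector, 1802, 1873 and 1818 CPM with F-78(WT) and 1744, 1819 and 1724 CPM with F-78(NLS Mut). Only vector replicates 2 and 3 stood above the rest, and the log2 fold change was -0.20 (SE 0.04, adjusted p = 0.02). HSP90B1 (GRP94), the HSP90 of the ER, was at 2458, 2416 and 2427 CPM with vector, 2437, 2302 and 2476 CPM with F-78(WT) and 1965, 2067 and 1965 CPM with F-78(NLS Mut). Here the F-78(WT) libraries overlapped vector and the F-78(NLS Mut) libraries lay below both groups, with a log2 fold change of -0.15 (SE 0.04, adjusted p = 0.044) for either form but -0.02 with F-78(WT) and -0.28 with F-78(NLS Mut). SDF2L1, a partner of the GRP78 co-chaperone ERdj3, was at 92.6, 144 and 151 CPM with vector, 90.3, 95.8 and 96.9 CPM with F-78(WT) and 100.2, 106 and 95.6 CPM with F-78(NLS Mut). Vector replicate 1 lay among the F-78 libraries, and the log2 fold change was -0.41 (SE 0.09, adjusted p = 0.029). ERO1B, an oxidase that recharges disulfide isomerases, was expressed at a low level, at 9.69, 9.57 and 9.98 CPM with vector, 6.32, 6.42 and 6.84 CPM with F-78(WT) and 5.76, 7.6 and 5.16 CPM with F-78(NLS Mut), with no overlap and a log2 fold change of -0.61 (SE 0.14, adjusted p = 0.044). Of the list, 2 members were called lower with F-78(WT) on its own and 6 with F-78(NLS Mut). F-78(WT) on its own did not pass for PDIA4, CRELD2, CALR or HSP90B1 (adjusted p = 0.15, 0.074, 0.11 and 0.92). F-78(NLS Mut) did not pass for SDF2L1 (adjusted p = 0.11). ERO1B passed with neither form (adjusted p = 0.12 with F-78(WT) and 0.069 with F-78(NLS Mut)). The key chaperone gene DNAJB9, a GRP78 co-chaperone that acts back on IRE1, did not pass the test at -0.16 (adjusted p = 0.25). Vector replicate 1 sat nearest to the F-78 libraries for CALR, CRELD2, HYOU1, PDIA4 and SDF2L1, and its part in these falls was not tested. For the list, without vector replicates 1, 2 and 3 in turn 16, 1 and 2 members fell, without those of F-78(WT) the counts were 5, 7 and 3, and without those of F-78(NLS Mut) they were 3, 5 and 2. After GC correction HYOU1, PDIA4, HSP90B1 and ERO1B were still called, while CALR came to -0.11, CRELD2 to -0.19 and SDF2L1 to -0.16.

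The stress sensors themselves gave no call, whereas DDIT3, ATF3, PPP1R15A, GADD45A and GDF15 of the PERK and ATF4 branch fell in the contrast of both forms. Of this branch, 7 members were called lower with F-78(WT) on its own and 0 with F-78(NLS Mut). Among 18 tested sensors and transcription factors of the UPR, 2 fell and 0 rose (unadjusted p under 0.05 in 2 higher and 4 lower members, and 0 higher and 3 lower with DESeq2), with a median of -0.03. These were DDIT3 and PPP1R15A, which the next list also holds. With GC correction the same 2 fell, and without vector replicates 1, 2 and 3 in turn 4, 1 and 0 members fell, without those of F-78(WT) the counts were 2, 3 and 2, and without those of F-78(NLS Mut) they were 2, 2 and 2. The sensors EIF2AK3 (PERK), ATF6 and ERN1 (IRE1), named here after their values were seen, gave -0.04 (adjusted p = 0.85), 0.00 (adjusted p = 0.99) and 0.05 (adjusted p = 0.86). XBP1, counted as total message whatever its splicing, was at 391, 397 and 398 CPM with vector, 373, 370.1 and 395 CPM with F-78(WT) and 383, 376 and 377 CPM with F-78(NLS Mut), which did not pass the test at -0.06 (adjusted p = 0.61). ATF4, which is controlled mostly in translation, was at 390.1, 414 and 428 CPM with vector, 362, 392 and 377 CPM with F-78(WT) and 400.05, 388 and 384 CPM with F-78(NLS Mut) and did not pass either at -0.10 (adjusted p = 0.37). Among 25 tested genes of the PERK and ATF4 branch, 5 fell and 0 rose (unadjusted p under 0.05 in 1 higher and 14 lower members, and 1 higher and 9 lower with DESeq2), with a median of -0.15, and with GC correction 4 fell (GDF15 lost its call), NDRG1 rose and the median was -0.06. DDIT3, the transcription factor CHOP, was at 49, 49 and 55.3 CPM with vector, 29.8, 35.4 and 33.6 CPM with F-78(WT) and 39.8, 44.1 and 43.8 CPM with F-78(NLS Mut). The groups did not overlap, F-78(WT) was lowest and F-78(NLS Mut) between, and the log2 fold change was -0.45 (SE 0.08, adjusted p = 0.0029), -0.63 with F-78(WT) and -0.26 with F-78(NLS Mut). ATF3, another stress-induced factor, was at 38.9, 43.1 and 42.2 CPM with vector, 22.2, 24.3 and 23.2 CPM with F-78(WT) and 34, 37.9 and 37.4 CPM with F-78(NLS Mut). Its F-78(WT) libraries stood well below the others and its F-78(NLS Mut) libraries just below vector. The log2 fold change of ATF3 was -0.51 (SE 0.08, adjusted p = 0.00093), -0.83 with F-78(WT) and -0.18 with F-78(NLS Mut). PPP1R15A (GADD34), the phosphatase subunit that ends the PERK signal, was at 87.1, 101 and 102 CPM with vector, 63.7, 76.7 and 57 CPM with F-78(WT) and 83.5, 86.6 and 80.2 CPM with F-78(NLS Mut). No library overlapped, although F-78(NLS Mut) came close to vector replicate 1, and the log2 fold change was -0.38 (SE 0.07, adjusted p = 0.011). GADD45A, a growth arrest gene also on the list of p53 targets, was at 63.8, 75.5 and 78.2 CPM with vector, 48.1, 53.7 and 48 CPM with F-78(WT) and 66.9, 67.6 and 65.6 CPM with F-78(NLS Mut). F-78(NLS Mut) lay between vector replicate 1 and the other vector libraries, with a log2 fold change of -0.33 (SE 0.07, adjusted p = 0.021) and -0.54 with F-78(WT) and -0.12 with F-78(NLS Mut). GDF15, a secreted stress cytokine, made the fifth at -0.29 (adjusted p = 0.049). With F-78(NLS Mut) on its own DDIT3, ATF3, PPP1R15A and GADD45A did not pass (adjusted p = 0.19, 0.43, 0.29 and 0.58). TRIB3, an ATF4 and CHOP target named after its values were seen, missed the threshold at -0.21 (adjusted p = 0.057). For this branch, without vector replicates 1, 2 and 3 in turn 12, 2 and 1 members fell, without those of F-78(WT) the counts were 3, 9 and 3, and without those of F-78(NLS Mut) they were 3, 3 and 3.

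Other ER machinery gave 1 call. HERPUD1, a membrane protein of ER-associated degradation, fell from 408, 442 and 457 CPM with vector to 361, 365 and 360.4 CPM with F-78(WT) and 364, 397 and 389 CPM with F-78(NLS Mut). The groups did not overlap and the log2 fold change was -0.23 (SE 0.05, adjusted p = 0.019), or -0.21 after GC correction, which kept the call. HERPUD1 was called in 5 of the 9 fits without 1 library, and not without vector replicate 2 or 3, F-78(WT) replicate 3 or F-78(NLS Mut) replicate 1, or with the 6 F-78 libraries as 1 group. With F-78(NLS Mut) on its own HERPUD1 did not pass (adjusted p = 0.11). Its promoter, at chr16:56932012-56932141 on the plus strand, is shown for its ERSE-II, with the match in capitals.
HERPUD1: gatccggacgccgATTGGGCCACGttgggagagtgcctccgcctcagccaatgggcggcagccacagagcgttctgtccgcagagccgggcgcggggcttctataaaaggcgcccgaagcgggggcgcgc
HERPUD1 was the only call among 43 tested genes of degradation and translocation (unadjusted p under 0.05 in 2 higher and 8 lower members, and 0 higher and 1 lower with DESeq2), whose median was -0.01. With GC correction 2 members fell, and without vector replicates 1, 2 and 3 in turn 5, 0 and 0 members fell, without those of F-78(WT) the counts were 1, 3 and 0, and without those of F-78(NLS Mut) they were 0, 1 and 1. Among 46 genes of ER to Golgi transport and N-glycosylation, 0 were called by edgeR (unadjusted p under 0.05 in 6 higher and 5 lower members, and 1 higher and 0 lower with DESeq2), with a median of -0.01. Among 36 genes of amino acid synthesis, transport and tRNA charging, many of them ATF4 targets, 0 were called by edgeR (unadjusted p under 0.05 in 0 higher and 6 lower members, and 0 higher and 0 lower with DESeq2), with a median of -0.05 that was -0.09 with F-78(WT) and 0.02 with F-78(NLS Mut).

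**Figure D3:**
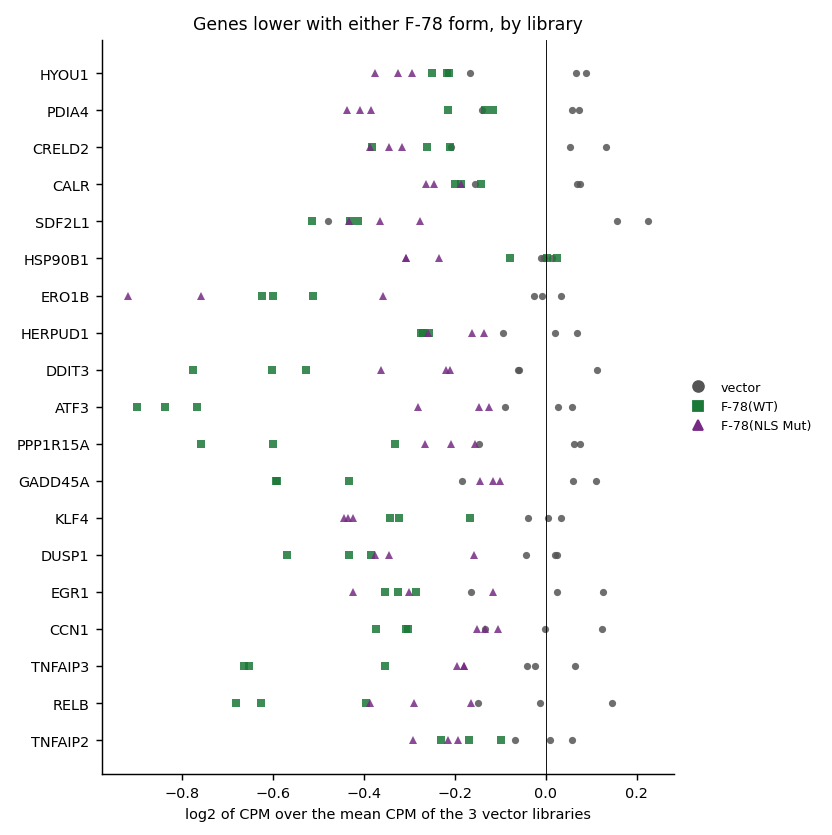
Level of 19 shared lower genes in each library, as log2 of CPM over the mean of the 3 vector libraries (horizontal axis), with circles for vector, squares for F-78(WT) and triangles for F-78(NLS Mut). DDIT3, ATF3 and TNFAIP3 are lowest with F-78(WT), PDIA4, HSP90B1 and KLF4 are lowest with F-78(NLS Mut), and 1 vector circle often lies to the left of the other 2.

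Immediate-early genes respond within minutes to growth factors and stress. Of 24 tested, 4 fell and 0 rose (unadjusted p under 0.05 in 0 higher and 13 lower members, and 0 higher and 6 lower with DESeq2), with a median of -0.20. KLF4, a zinc finger factor of epithelial differentiation, was at 133, 139.5 and 137 CPM with vector, 109, 121 and 107 CPM with F-78(WT) and 100.1, 101 and 101 CPM with F-78(NLS Mut). The groups did not overlap, the log2 fold change was -0.36 (SE 0.05, adjusted p = 0.00093), and KLF4 was called in all 11 other fits to the 9 libraries and in all 9 with a library left out. DUSP1, a phosphatase that switches off MAP kinases, was at 51.3, 48.9 and 51.1 CPM with vector, 37.3, 34 and 38.6 CPM with F-78(WT) and 45.2, 38.9 and 39.7 CPM with F-78(NLS Mut), without overlap, with a log2 fold change of -0.38 (SE 0.07, adjusted p = 0.014). EGR1 gave -0.30 (adjusted p = 0.03) and the matricellular gene CCN1 -0.23 (adjusted p = 0.039), both with libraries that overlapped between the groups. NR4A1, an orphan nuclear receptor of the same kind that is not on the list, was at 8.72, 9.57 and 7.95 CPM with vector, 6.05, 6.19 and 6.02 CPM with F-78(WT) and 5.29, 3.05 and 4.82 CPM with F-78(NLS Mut), all 6 below vector, with a log2 fold change of -0.77 (SE 0.16, adjusted p = 0.023). NR4A1 came to -0.52 with F-78(WT) (adjusted p = 0.24) and -1.01 with F-78(NLS Mut). On its own F-78(NLS Mut) did not pass for DUSP1, EGR1 or CCN1 (adjusted p = 0.12, 0.091 and 0.38), while KLF4 passed with each form. With GC correction 2 members of the list stayed called, KLF4 at -0.27 and DUSP1 at -0.29, and EGR1 came to -0.21 and CCN1 to -0.16. For this list, without vector replicates 1, 2 and 3 in turn 12, 2 and 1 members fell, without those of F-78(WT) the counts were 2, 8 and 2, and without those of F-78(NLS Mut) they were 3, 1 and 1.

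Of 20 tested genes that NF-kB drives in inflammation, 3 fell and 0 rose (unadjusted p under 0.05 in 0 higher and 8 lower members, and 0 higher and 4 lower with DESeq2), with a median of -0.21, -0.32 with F-78(WT) and -0.13 with F-78(NLS Mut). TNFAIP3 (A20), which ends NF-kB signalling, was at 42, 41.5 and 44.6 CPM with vector, 27.1, 33.4 and 27 CPM with F-78(WT) and 37.7, 37.7 and 37.3 CPM with F-78(NLS Mut). Its F-78(NLS Mut) libraries lay close under vector and its F-78(WT) libraries lower, with a log2 fold change of -0.37 (SE 0.08, adjusted p = 0.03). RELB, an NF-kB subunit, gave -0.42 (adjusted p = 0.039) and TNFAIP2 gave -0.20 (adjusted p = 0.029). On its own F-78(NLS Mut) did not pass for TNFAIP3 or RELB (adjusted p = 0.43 and 0.28), and F-78(WT) did not for TNFAIP2 (adjusted p = 0.15). The GC correction took the list's median to -0.07 and left TNFAIP3 alone called, at -0.33, with RELB at -0.22 and TNFAIP2 at -0.06. The calls of this list rest on few libraries: without vector replicates 1, 2 and 3 in turn 6, 0 and 0 members fell, without those of F-78(WT) the counts were 0, 3 and 0, and without those of F-78(NLS Mut) they were 0, 0 and 0. Of 41 tested interferon-stimulated genes, 1 rose and 1 fell (unadjusted p under 0.05 in 12 higher and 4 lower members, and 4 higher and 0 lower with DESeq2), with a median of 0.09. OAS2, an antiviral enzyme, was at 252, 248 and 232 CPM with vector, 288, 282 and 274 CPM with F-78(WT) and 275, 291 and 276 CPM with F-78(NLS Mut), higher in 6 of 6 libraries, with 0.20 (SE 0.05, adjusted p = 0.044). IFI6, a membrane protein that interferon induces, was at 302, 375 and 399.6 CPM with vector, 208, 298 and 276 CPM with F-78(WT) and 288, 289.98 and 287 CPM with F-78(NLS Mut), lower in 6 of 6 although F-78(WT) replicate 2 came within a few CPM of vector replicate 1, with -0.39 (SE 0.08, adjusted p = 0.014). With GC correction 4 interferon-stimulated genes rose and 1 fell. For rises, without vector replicates 1, 2 and 3 in turn 12, 0 and 0 members rose, without those of F-78(WT) the counts were 0, 2 and 0, and without those of F-78(NLS Mut) they were 0, 0 and 0. For falls, without vector replicates 1, 2 and 3 in turn 4, 0 and 0 members fell, without those of F-78(WT) the counts were 1, 3 and 1, and without those of F-78(NLS Mut) they were 1, 1 and 1. OAS2 was called in 2 of the 9 fits without 1 library and IFI6 in 7 of the 9 fits without 1 library. OAS2 passed with neither form on its own (adjusted p = 0.084 with each), and IFI6 did not pass with F-78(NLS Mut) (adjusted p = 0.10). Of 22 tested p53 targets, GADD45A was the only call (unadjusted p under 0.05 in 1 higher and 8 lower members, and 0 higher and 2 lower with DESeq2), with a median of -0.03. With GC correction GADD45A stayed the only call, and without vector replicates 1, 2 and 3 in turn 3, 0 and 0 members fell, without those of F-78(WT) the counts were 0, 3 and 0, and without those of F-78(NLS Mut) they were 0, 0 and 0.

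Chaperones of the cytosol gave rises. Of 29 tested heat shock genes, 2 rose and 0 fell (unadjusted p under 0.05 in 12 higher and 0 lower members, and 5 higher and 0 lower with DESeq2), with a median of 0.10, 0.05 with F-78(WT) and 0.14 with F-78(NLS Mut). HSPA8, the constitutive HSP70 of the cytosol, was at 1072, 1157 and 1095 CPM with vector, 1269, 1251 and 1248 CPM with F-78(WT) and 1328, 1489 and 1459 CPM with F-78(NLS Mut). Every F-78 library exceeded every vector library, F-78(NLS Mut) most, and the log2 fold change was 0.27 (SE 0.04, adjusted p = 0.00086), 0.18 with F-78(WT) and 0.36 with F-78(NLS Mut). HSP90AA1, the inducible cytosolic HSP90, was at 1452, 1466 and 1411 CPM with vector, 1667, 1583 and 1657 CPM with F-78(WT) and 1803, 1969.6 and 1855 CPM with F-78(NLS Mut), in the same order of groups, with 0.28 (SE 0.04, adjusted p = 0.00018) and 0.18 with F-78(WT) and 0.38 with F-78(NLS Mut). Both genes were called in all 11 other fits to the 9 libraries and all 9 fits with a library left out. Taken on its own, F-78(WT) did not pass the test for either gene (adjusted p = 0.074 for HSPA8 and 0.051 for HSP90AA1), while F-78(NLS Mut) did. Over the other fits the contrast of both forms gave log2 fold changes from 0.24 to 0.30 for HSPA8 and from 0.25 to 0.29 for HSP90AA1. With GC correction FKBP4, a cochaperone of HSP90, and HSF1, the heat shock factor, joined them at 0.21 and 0.24. FKBP4 came to 0.05 with F-78(WT) and 0.37 with F-78(NLS Mut), and HSF1 to 0.24 and 0.25. With that correction and vector replicates 1, 2 and 3 left out in turn, 3, 2 and 2 members rose. Uncorrected, without vector replicates 1, 2 and 3 in turn 6, 2 and 2 members rose. Without those of F-78(WT) the uncorrected counts were 2, 3 and 2, and without those of F-78(NLS Mut) they were 2, 2 and 2. HSPA1A, the strongly inducible HSP70, was below the filter and was not tested, and reads from its near-identical copy HSPA1B could not be told from its own. Promoters of the 2 called genes are printed for the heat shock element, GAA, TTC and GAA each 2 bases apart on either strand, which was found for 166 of 27305 genes (0.608%). HSPA8 lies at chr11:123062137-123062376 on the minus strand and the start of HSP90AA1 nearer its 3′ side at chr14:102087045-102087144 on the minus strand, with the matches in capitals. HSP90AA1 has a second, more distal start in RefSeq, whose promoter held no match.
HSPA8: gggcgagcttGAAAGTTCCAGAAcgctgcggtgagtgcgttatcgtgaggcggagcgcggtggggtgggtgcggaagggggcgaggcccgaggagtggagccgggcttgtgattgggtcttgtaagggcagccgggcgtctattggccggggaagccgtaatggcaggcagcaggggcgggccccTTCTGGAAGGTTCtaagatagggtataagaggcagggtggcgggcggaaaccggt
HSP90AA1: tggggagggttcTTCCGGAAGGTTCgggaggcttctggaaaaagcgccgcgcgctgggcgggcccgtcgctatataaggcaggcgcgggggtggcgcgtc

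DNA replication gave 2 called rises, both in the replicative helicase. Of 38 tested genes of replication and mitosis, 2 rose and 0 fell (unadjusted p under 0.05 in 20 higher and 1 lower members, and 8 higher and 0 lower with DESeq2), and the median was 0.15, 0.06 with F-78(WT) and 0.24 with F-78(NLS Mut). MCM6, a subunit of it, was at 71.3, 79.6 and 75.7 CPM with vector, 88.1, 92.2 and 88.9 CPM with F-78(WT) and 98.4, 97.7 and 96.4 CPM with F-78(NLS Mut), without overlap, with a log2 fold change of 0.31 (SE 0.06, adjusted p = 0.011). MCM4, another subunit, was at 151, 176 and 162 CPM with vector, 179.5, 182 and 185 CPM with F-78(WT) and 203, 222 and 224 CPM with F-78(NLS Mut). F-78(NLS Mut) stood clearly above and F-78(WT) only just above the highest vector library, with 0.29 (SE 0.05, adjusted p = 0.011). Taken on its own, F-78(WT) did not pass the test for MCM6 (adjusted p = 0.091) or MCM4 (adjusted p = 0.28), while F-78(NLS Mut) did. Of the list, 0 members were called higher with F-78(WT) on its own and 7 with F-78(NLS Mut). The condensin genes SMC4 and NCAPD2, the cytokinesis gene ANLN and the S-phase genes ATAD2 and FAM111B, all but the last named after their values were seen, were further shared rises, at 0.26 (adjusted p = 0.014), 0.23 (adjusted p = 0.033), 0.23 (adjusted p = 0.04), 0.35 (adjusted p = 0.014) and 0.47 (adjusted p = 0.041). SMC4, NCAPD2, ANLN, ATAD2 and FAM111B also passed with F-78(NLS Mut) on its own but not with F-78(WT). With GC correction the list held 6 rises, MCM2, MCM3, MCM4, MCM6, MCM7 and CDC45, though with F-78(WT) MCM2 came only to 0.09 and MCM7 to 0.05. For the list, without vector replicates 1, 2 and 3 in turn 8, 2 and 0 members rose, without those of F-78(WT) the counts were 2, 3 and 2, and without those of F-78(NLS Mut) they were 2, 1 and 1.

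The mitochondrial genome encodes subunits of the respiratory chain. Of its 13 tested genes, 5 rose and 0 fell (unadjusted p under 0.05 in 9 higher and 0 lower members, and 7 higher and 0 lower with DESeq2), with a median of 0.17. The median was 0.24 with F-78(WT) and 0.09 with F-78(NLS Mut). MT-CO1, a subunit of cytochrome oxidase, was at 9311, 8495 and 8277 CPM with vector, 11714, 9741 and 10132 CPM with F-78(WT) and 9758, 9943 and 10065 CPM with F-78(NLS Mut). F-78(WT) replicate 1 was the highest, all 6 exceeded vector, and the log2 fold change was 0.23 (SE 0.04, adjusted p = 0.0041). MT-ND5, of complex I, gave 0.22 (adjusted p = 0.021), MT-ND4 0.19 (adjusted p = 0.017), MT-CYB 0.16 (adjusted p = 0.049) and MT-CO2 0.16 (adjusted p = 0.041). For MT-ND4 and MT-CO2 the F-78 libraries overlapped vector. Of the 13 genes, 7 were called higher with F-78(WT) on its own and 0 with F-78(NLS Mut). With F-78(NLS Mut) MT-ND4 came to 0.12, MT-CYB to 0.09 and MT-CO2 to 0.07. Mitochondrial genes took 5.61% to 6.02% of the counts with vector and 5.82% to 6.85% with F-78, a difference that an exact permutation test did not separate from the spread of libraries (two-sided p = 0.17). MTATP6P1, a nuclear copy of mitochondrial sequence and so uncertain, also rose. With GC correction 8 mitochondrial genes rose, and without vector replicates 1, 2 and 3 in turn 9, 0 and 0 members rose, without those of F-78(WT) the counts were 3, 7 and 3, and without those of F-78(NLS Mut) they were 3, 2 and 2. Of 32 tested genes of hypoxia and glycolysis, 1 rose and 0 fell (unadjusted p under 0.05 in 13 higher and 0 lower members, and 4 higher and 0 lower with DESeq2), with a median of 0.10. This was PGK1, a glycolytic kinase, at 763, 829.7 and 793 CPM with vector, 909.5, 946 and 911 CPM with F-78(WT) and 848, 943 and 918 CPM with F-78(NLS Mut), without overlap, with 0.20 (SE 0.04, adjusted p = 0.029). The GC correction raised the count on this list to 10, with GAPDH, ENO1, PGAM1, PKM, GPI and PFKL among them, and the median to 0.15. With that correction and vector replicates 1, 2 and 3 left out in turn, 8, 6 and 2 members rose. Uncorrected, without vector replicates 1, 2 and 3 in turn 5, 0 and 0 members rose. Without those of F-78(WT) the uncorrected counts were 1, 3 and 0, and without those of F-78(NLS Mut) they were 1, 0 and 0. PGK1 was called in 4 of the 9 fits without 1 library, and it did not pass with F-78(NLS Mut) on its own (adjusted p = 0.079).

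**Figure D4:**
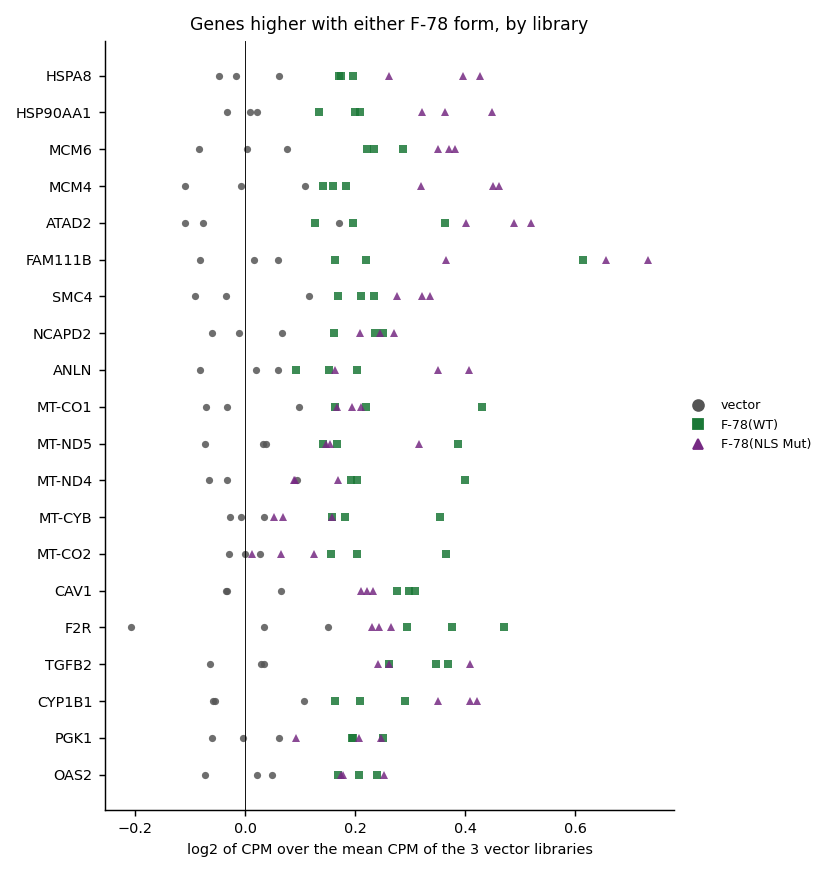
Level of 20 shared higher genes in each library, as log2 of CPM over the mean of the 3 vector libraries (horizontal axis), with circles for vector, squares for F-78(WT) and triangles for F-78(NLS Mut). HSPA8, HSP90AA1, MCM6 and MCM4 are highest with F-78(NLS Mut), and the 5 mitochondrial genes reach their highest value in 1 F-78(WT) library.

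The largest shared falls lay mostly on none of the lists. AGR2, an ER protein of the disulfide isomerase family that secretory epithelia use for mucin, was at 13.8, 15.3 and 15.6 CPM with vector, 8.94, 9.85 and 7.61 CPM with F-78(WT) and 9.95, 9.36 and 10.5 CPM with F-78(NLS Mut). BHLHA15 (MIST1), a transcription factor of secretory cells, was at 20.5, 26.2 and 28.1 CPM with vector, 13.4, 15.4 and 10.4 CPM with F-78(WT) and 18, 19 and 17.2 CPM with F-78(NLS Mut). CLDN1, a claudin of tight junctions, was at 20, 18 and 16.4 CPM with vector, 8.35, 10.5 and 14.1 CPM with F-78(WT) and 12.9, 11 and 12.4 CPM with F-78(NLS Mut). None of the 3 genes overlapped between F-78 and vector. Their log2 fold changes were -0.67 (SE 0.12, adjusted p = 0.0041) for AGR2, -0.70 (SE 0.11, adjusted p = 0.0018) for BHLHA15 and -0.66 (SE 0.13, adjusted p = 0.013) for CLDN1, and -0.71, -0.40 and -0.69 after GC correction, which kept all 3 calls. The hormone-sensitive lipase gene LIPE, at 4.52, 5.53 and 5.06 CPM with vector, 1.58, 3.46 and 2.41 CPM with F-78(WT) and 2.88, 2.47 and 2.95 CPM with F-78(NLS Mut), had the largest fall, -0.94 (SE 0.22, adjusted p = 0.044), which did not pass after GC correction at -0.78. PDLIM2, a PDZ and LIM domain protein, gave -0.81 (adjusted p = 0.029), and -0.66 after that correction, when it did not pass (adjusted p = 0.066). CCDC144NL gave -0.61 (adjusted p = 0.0035), the axonemal dynein DNAH17 -0.60 (adjusted p = 0.037) and the imprinted growth regulator PHLDA2 -0.53 (adjusted p = 0.044). With GC correction CCDC144NL and DNAH17 kept their calls and PHLDA2 did not, at -0.35. LIPE, DNAH17 and PHLDA2 were each called in 2 of the 9 fits without 1 library, and PDLIM2 in 3. On its own F-78(WT) did not pass for PDLIM2 or CCDC144NL, and F-78(NLS Mut) did not pass for DNAH17, PHLDA2, BHLHA15 or CLDN1. The adjusted p with F-78(NLS Mut) was 0.10 for BHLHA15 and 0.064 for CLDN1. LIPE passed with neither form on its own (adjusted p = 0.074 with F-78(WT) and 0.13 with F-78(NLS Mut)).

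Apart from HSPA5 and its copies, SERPINB4 had the largest rise. This gene, a serpin whose near-identical neighbour SERPINB3 makes its reads uncertain, was at 4.2, 3.36 and 4.55 CPM with vector, 8.58, 8.92 and 9.24 CPM with F-78(WT) and 5.6, 6.62 and 6.68 CPM with F-78(NLS Mut), all 6 above vector, with 0.89 (SE 0.16, adjusted p = 0.0061). CYP1B1, a cytochrome P450, was at 245, 219.5 and 219 CPM with vector, 279, 255 and 264 CPM with F-78(WT) and 303, 305 and 291 CPM with F-78(NLS Mut), without overlap, with 0.31 (SE 0.05, adjusted p = 0.002). F2R, the thrombin receptor PAR1, gave 0.32 (adjusted p = 0.029), the growth factor gene TGFB2 0.32 (adjusted p = 0.023) and SLC35B4, a nucleotide sugar transporter, 0.32 (adjusted p = 0.037). F2R, TGFB2 and SLC35B4 were each called in 2 of the 9 fits without 1 library. With F-78(NLS Mut) on its own they did not pass (adjusted p = 0.15, 0.053 and 0.10). SERPINB4 did not pass with F-78(NLS Mut) on its own either (adjusted p = 0.10), nor CYP1B1 with F-78(WT) (adjusted p = 0.074). EGFR, the receptor that H1975 cells depend on, was at 345, 337 and 315 CPM with vector, 385, 341 and 340.01 CPM with F-78(WT) and 364, 356 and 369 CPM with F-78(NLS Mut). It did not pass the test at 0.11 (adjusted p = 0.34), with 0.10 with F-78(WT) and 0.13 with F-78(NLS Mut).

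At the same threshold, 8 shared genes were called in each of the 11 other fits to the 9 libraries and each of the 9 fits that left one out. The 4 that rose were HSPA5, HSPA8, HSP90AA1 and CAV1, of which HSPA8 and HSP90AA1 did not pass with F-78(WT) on its own. Those that fell included KLF4, IGFBP6 and SEMA3B. CAV1, IGFBP6 and SEMA3B are named for that reason, after their values were seen. CAV1, the coat protein of caveolae, was at 556, 519 and 519 CPM with vector, 653, 643 and 658 CPM with F-78(WT) and 615, 619 and 624 CPM with F-78(NLS Mut), with 0.26 (SE 0.04, adjusted p = 0.0018). IGFBP6, a secreted binding protein that restrains IGF-II, was at 261, 318 and 330.02 CPM with vector, 217, 255 and 219 CPM with F-78(WT) and 195, 195 and 200.03 CPM with F-78(NLS Mut), with -0.51 (SE 0.06, adjusted p = 2.2e-05). No library of CAV1 or IGFBP6 overlapped between F-78 and vector. SEMA3B, a secreted semaphorin, was at 223, 253 and 259 CPM with vector, 176, 209 and 207 CPM with F-78(WT) and 174, 175 and 172 CPM with F-78(NLS Mut), with -0.40 (SE 0.06, adjusted p = 0.00027). Its groups did not overlap either.

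The remaining lists held few calls. Of 39 tested genes of the extracellular matrix, 2 fell and 0 rose (unadjusted p under 0.05 in 5 higher and 12 lower members, and 3 higher and 6 lower with DESeq2), and the median of -0.05 stood for 0.07 with F-78(WT) and -0.17 with F-78(NLS Mut). COL7A1, the collagen of anchoring fibrils, was at 271, 299 and 306 CPM with vector, 225, 262 and 248 CPM with F-78(WT) and 223, 215 and 229 CPM with F-78(NLS Mut), without overlap, with -0.32 (SE 0.05, adjusted p = 0.0018), and LTBP3, which binds latent TGF-beta, gave -0.24 (adjusted p = 0.035). With F-78(WT) on its own neither passed (adjusted p = 0.056 for COL7A1 and 0.35 for LTBP3). After GC correction neither passed, COL7A1 at -0.13 and LTBP3 at -0.04, and TGFBI, named after its value was seen, rose. For falls on this list, without vector replicates 1, 2 and 3 in turn 7, 2 and 1 members fell, without those of F-78(WT) the counts were 1, 6 and 1, and without those of F-78(NLS Mut) they were 1, 1 and 1. For rises, without vector replicates 1, 2 and 3 in turn 5, 0 and 0 members rose, without those of F-78(WT) the counts were 0, 1 and 0, and without those of F-78(NLS Mut) they were 0, 0 and 0. No gene was called by edgeR among 31 of sterol and fatty acid synthesis (unadjusted p under 0.05 in 3 higher and 1 lower members, and 1 higher and 0 lower with DESeq2), with a median of 0.03. The same held for 29 genes of autophagy and lysosome (unadjusted p under 0.05 in 2 higher and 6 lower members, and 0 higher and 2 lower with DESeq2), with a median of -0.03, and for 34 proteasome genes (unadjusted p under 0.05 in 4 higher and 0 lower members, and 0 higher and 0 lower with DESeq2), with a median of 0.03. Of 9 tested nuclear and non-polyadenylated RNAs, taken as a sign of RNA quality, none was called by edgeR (unadjusted p under 0.05 in 1 higher and 0 lower members, and 0 higher and 0 lower with DESeq2), with a median of 0.01. Without vector replicate 1 calls appeared on lists that had none, 5 higher and 4 lower for ER to Golgi transport, 1 and 4 for amino acid genes, 3 and 2 for sterol and fatty acid synthesis, 2 and 4 for autophagy and lysosome, and 1 and 0 for the proteasome. The lists were chosen with earlier results of these data known, so their counts describe these libraries.

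**Figure D5:**
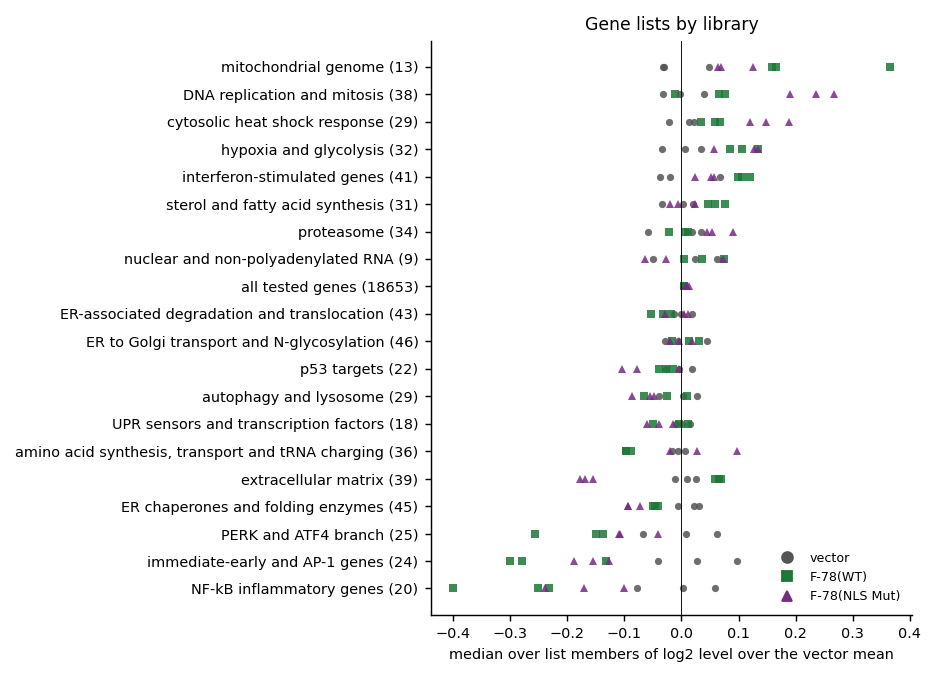
Median over the members of each gene list of the log2 level over the vector mean (horizontal axis), with 1 point per library and the number of genes tested in brackets. NF-kB, immediate-early and PERK and ATF4 genes lie to the left in the F-78 libraries, mitochondrial, replication and heat shock genes mostly to the right, and all tested genes stay near 0.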

How the data were processed

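RNA-Seq libraries of H1975 cells under si78 were grouped by their titles as vector, F-78(NLS Mut) and F-78(WT), 3 each. The authors deposited unnormalized read counts per gene, 1 file per library. The submitters' processing notes name STAR 2.7.9a, GRCh38.p14 and DESeq2 1.36.0, and the annotation release is not given in the sources used here. The unstranded counts were used, since 50.6% to 51.9% of strand-assigned reads fell on the forward strand. Reads on the summary lines (27.6% to 30.7%) entered neither the library sizes nor the tests. GENCODE 29 gave symbols for 61399 of 61544 gene identifiers, and coordinates and GC content for 58342.

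Counts were filtered with filterByExpr, scaled by TMM and tested with edgeR 4.0.16 (R 4.3.3, limma 3.58.1), by a quasi-likelihood test of the mean of both forms against vector in a model of all 9 libraries, with a Benjamini-Hochberg threshold of 0.05. All libraries share 1 estimate of the spread. Standard errors are the log2 fold change over the square root of F. Vector is shared by the comparisons with each form. The fits were tested on simulated data.

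Members and gene lists were chosen with earlier results of these data known. The genes named were HSPA5, HSP90B1, CALR, HERPUD1, DNAJB9, SDF2L1, XBP1, ATF4, DDIT3, HSPA1A, HSPA8 and EGFR, non-overlapping shared genes averaging 1 CPM or more (the 10 largest rises and falls), and up to 4 shared members of each list with the smallest p. HSPA1A was not tested, and SOD2 was not found by its symbol. Some of the genes this rule names are not reported here. Counting without strand leaves overlapping and antisense genes uncertain, and likewise copies such as SERPINB4, HLA-F, H2AJ, TUBA1A, RPL41P1 and MTATP6P1.

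Alternatives were DESeq2 1.42.0, edgeR on DESeq2 size factors, scaling by library size alone, no filter, a filter of 1 CPM in 3 libraries, the sum of both strands, 6 libraries as 1 group, a replicate block, corrections for GC content and length, a threshold of 0.01, calls with each form separately, and leaving out each library. The GC correction with a vector library left out was chosen after seeing the data. Promoters are from RefSeq (GRCh38.p14), matched by symbol for 18 of the 34 higher and 52 of the 71 lower genes. Depth ran from 17671055 to 27476298 counts per library, and replicate libraries differed by 3.55 to 12.6 times sampling noise (chi-square over its degrees of freedom), so none was counted as a duplicate.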

Additional observations from a re-analysis of the deposited data

Results flagged for a closer look

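A test between the forms called 10 of the 105 shared genes, whose estimated change over vector had the same sign with both forms but a different size. A shared sign does not show a change with each form. HSP90B1 came to -0.02 with F-78(WT) on its own (adjusted p = 0.92). With F-78(NLS Mut) on its own, MT-CO2 came to 0.07 (adjusted p = 0.55), GADD45A to -0.12 (adjusted p = 0.58) and DNAH17 to -0.24 (adjusted p = 0.57). The difference is given as F-78(WT) minus F-78(NLS Mut) on the log2 scale, by edgeR's quasi-likelihood test adjusted over all 18653 genes. HSP90B1, the HSP90 of the ER, differed by 0.27 (adjusted p = 0.00057) and PDIA4, a disulfide isomerase, by 0.26 (adjusted p = 0.0057), and both were lower with F-78(NLS Mut). GSN, the actin-severing protein gelsolin, differed by 0.35 (adjusted p = 0.0055) and AQP3, a water and glycerol channel, by 0.58 (adjusted p = 0.0021), again lower with F-78(NLS Mut). ATF3, a stress-induced transcription factor, differed by -0.65 (adjusted p = 0.00035) and GADD45A, a growth arrest gene, by -0.42 (adjusted p = 0.012), and both were lower with F-78(WT). KLHDC7B differed by -0.70 (adjusted p = 0.00094) and DNAH17, a dynein heavy chain, by -0.71 (adjusted p = 0.046), in that direction too. Among the shared rises, HSP90AA1, the cytosolic HSP90, differed by -0.20 (adjusted p = 0.031), being higher with F-78(NLS Mut), and MT-CO2, a subunit of cytochrome oxidase, by 0.18 (adjusted p = 0.048), being higher with F-78(WT). The test calls 0.504% of all genes. With 3 libraries in each group, no library was tested as standing apart within its group.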

How the results depend on the processing

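Size factors, the 1 CPM filter and the sum of both strands left the counts of 34 higher and 71 lower genes within 1.5 times. Counts of higher and lower genes were 184 and 177 with DESeq2, 77 and 225 without a filter, 10 and 14 with the 6 F-78 libraries as 1 group, 10 and 14 at an adjusted p under 0.01, and 4 and 7 when each form had to pass separately. Normalization by library size alone gave 26 and 159. The GC correction gave 158 and 38, and 158 and 41 with length added. Without 1 library the counts ran from 7 to 598 higher and from 9 to 764 lower. Both extremes were vector libraries: 598 and 764 without replicate 1, 9 and 14 without replicate 2, and 7 and 9 without replicate 3. The F-78(WT) replicates 1, 2 and 3 left out gave 20 and 36, 90 and 233, and 15 and 25, and the F-78(NLS Mut) replicates gave 21 and 31, 12 and 24, and 14 and 26. The GC correction without vector replicate 1 gave 210 and 52, without replicate 2 it gave 42 and 12, and without replicate 3 it gave 26 and 8. The cause was not tested.

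Deviations from the group mean had correlations of -0.0249 to 0.0535 over 9 pairs of same-numbered libraries. Over 18 pairs of different number they were -0.0395 to 0.0254. These ranges overlap, but correlations near 0 over all genes cannot exclude that the numbers pair the libraries. A fit with a replicate block gave 83 higher and 162 lower genes, with all 34 and 71 among them, and 194 and 45 with GC correction.

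ATF4, which did not pass the test, turned from -0.10 to 0.0040 with the GC and length correction and to 0.0079 with the GC correction without vector replicate 3, and LTBP3 turned from -0.24 to 0.040 with the GC correction without vector replicate 1. Of the 55 named genes, 9 lost their call with DESeq2, 12 with the GC correction, 34 with 6 libraries as 1 group, 35 without vector replicate 2 and 39 without vector replicate 3. HSPA5P1, ENSG00000250746 and SERPINB4 count as lost with DESeq2 because it gave them no adjusted p. The smallest absolute log2 fold change called at this depth was that of HSP90B1, -0.15.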

Other observations

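With the GC correction, genes of glycolysis not called in the main edgeR fit were called higher in the contrast of both forms. GAPDH, the glycolytic dehydrogenase, had a log2 fold change of 0.25, ENO1, the enolase, of 0.20, PKM, pyruvate kinase, of 0.19, GPI, phosphoglucose isomerase, of 0.23, and PGAM1, phosphoglycerate mutase, of 0.22. The regulators PFKFB4 and PDK3 had 0.29 and 0.33, and BNIP3, a mitophagy receptor that hypoxia induces, had 0.27. Cytoskeletal genes were called as well, ACTB at 0.22, ACTG1 at 0.21, TUBA1C at 0.28 and VIM at 0.26. MCM2, MCM3 and MCM7, further subunits of the replicative helicase, had 0.27, 0.29 and 0.18. Their values were 0.09, 0.18 and 0.05 with F-78(WT) and 0.45, 0.40 and 0.31 with F-78(NLS Mut). FASN, the fatty acid synthase, had 0.25. Lower after correction were SEL1L, an adaptor of ER-associated degradation, at -0.15, and B2M, the light chain of HLA class I, at -0.16. These genes were named after their values were seen, and none of them was called in the main edgeR fit. With the correction and vector replicates 1, 2 and 3 left out in turn, rises numbered 210, 42 and 26 over all genes tested. Of these the list of hypoxia and glycolysis held 8, 6 and 2. Without the correction, the list of hypoxia and glycolysis held 4 rises with DESeq2 and 4 with a replicate block.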
